A study of Mus musculus with 37 samples.

Results

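Retinoic acid is made from vitamin A (retinol), and 9 genes of its synthesis, breakdown and sensing were examined by name in the deposited gene table: Rdh10, Aldh1a1, Aldh1a2, Aldh1a3, Cyp26b1, Rarb, Stra6, Crabp1 and Crabp2. All 9 were present among its 56351 genes. The table holds RNA from ribosomes pulled down out of mouse lymph nodes and spleen, and the question asked of the 9 genes was whether nodes that drain the gut differ from other nodes.

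Every mouse, including the source of the isotype control, carried CD169 Cre KI/KI and a homozygous Rpl22HA allele, so there was no group without the tag. In such RiboTag mice Cre switches on a haemagglutinin-tagged copy of a ribosomal protein, and an antibody to the tag recovers ribosomes with the mRNA they carry. CD169 (Siglec1) marks macrophages of the lymph node sinuses, and the labels give the cells as CD169 macrophages. Libraries of polyadenylated RNA came from 12 sites with 3 libraries each. Along the gut these were the ileal, jejunal, duodenal and ceco-colonic nodes, with celiac and liver nodes beside them. Away from it were the mediastinal, iliac, deep cervical, inguinal and super cervical nodes, and spleen. A further library was an isotype control from a jejunal node. The labels give no age or sex, no treatment and no statement that replicates came from separate animals, so p-values may measure technical spread only.

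Cells obtain retinol from the blood through the receptor STRA6. RDH10 oxidises retinol to retinal, the aldehyde dehydrogenases ALDH1A1, ALDH1A2 and ALDH1A3 turn retinal into retinoic acid, CRABP1 and CRABP2 carry it inside the cell, CYP26B1 destroys it, and receptors such as RARB switch genes on in response. In gut-draining nodes retinoic acid made by dendritic cells and stromal cells is known for imprinting lymphocytes with gut-homing receptors, and ALDH1A2 is the enzyme best known for that role.

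The promoters of Rarb, Aldh1a2 and Cyp26b1 are shown because Aldh1a2 and Cyp26b1 were the 2 genes higher in the ileal node and Rarb carries the textbook response element. RefSeq promoter windows of 300 bases around an annotated start (GRCm38.p6) were found for 6 of the 9 genes, 10 windows in all, and none for Aldh1a3, Rdh10 or Crabp2. The windows were searched on both strands for the letters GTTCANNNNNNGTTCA, the retinoic acid response element of the Rarb promoter, and for direct repeats of the receptor motif named DR5, DR2 and DR1, of which DR5 overlaps the first. Rarb, at chr14:16575427-16575726 on the minus strand, held the DR5 element, printed in capitals, from position -53 relative to its start site. Aldh1a2, at chr9:71215539-71215838 on the plus strand, and Cyp26b1, at chr6:84593761-84594060 on the minus strand, held no match in these letters.
Rarb: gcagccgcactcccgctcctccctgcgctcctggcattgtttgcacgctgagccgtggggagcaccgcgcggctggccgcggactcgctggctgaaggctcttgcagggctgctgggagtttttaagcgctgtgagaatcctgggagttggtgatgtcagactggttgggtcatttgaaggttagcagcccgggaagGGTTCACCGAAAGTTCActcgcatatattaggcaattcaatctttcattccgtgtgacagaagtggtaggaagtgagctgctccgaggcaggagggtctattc
Aldh1a2: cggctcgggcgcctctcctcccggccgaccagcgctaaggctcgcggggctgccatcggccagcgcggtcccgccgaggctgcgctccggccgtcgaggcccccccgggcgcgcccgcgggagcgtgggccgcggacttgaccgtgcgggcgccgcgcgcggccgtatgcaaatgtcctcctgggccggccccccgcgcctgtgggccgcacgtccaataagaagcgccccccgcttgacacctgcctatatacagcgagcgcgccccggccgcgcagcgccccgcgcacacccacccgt
Cyp26b1: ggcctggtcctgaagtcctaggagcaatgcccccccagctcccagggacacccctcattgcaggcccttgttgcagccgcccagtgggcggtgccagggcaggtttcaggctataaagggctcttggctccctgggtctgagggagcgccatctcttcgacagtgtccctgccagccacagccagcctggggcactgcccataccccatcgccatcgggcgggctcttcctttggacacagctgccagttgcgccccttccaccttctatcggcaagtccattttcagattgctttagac
The searched letters occurred in 0.0761% of 32851 RefSeq windows of 300 bases, DR5 in 0.0974%, DR2 in 0.268% and DR1 in 0.222%, and no window of another of the 9 genes held any of them. The Aldh1a2 window was 78% G or C with 50 CG dinucleotides, against 62.3% with 9 for Cyp26b1 and 57.7% with 17 for Rarb.

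Depth decided which sites could be read. Totals ran from 221911 to 69139450 estimated counts, and 22 libraries reached 1000000: all 3 of the ileal, ceco-colonic, mediastinal, inguinal, deep cervical and super cervical nodes and of spleen, and 1 jejunal library. The other 14 held 221911 to 917912 counts, of which 39.0% to 85.6% fell on 3 ribosomal features. Tests therefore used the 22 deeper libraries, with edgeR's quasi-likelihood model over 19702 genes and Benjamini-Hochberg adjustment over all of them. The mediastinal libraries were deepest, at 41240156 to 69139450 counts, then the ileal ones at 18811172 to 31849079, while the ceco-colonic ones held 2373771 to 4194213. In the 22 libraries 3 counts were worth from 0.0434 to 2.57 counts per 1000000 (CPM), a limit that covers counting error only. Levels are CPM scaled by TMM unless called plain, which means scaled by the library total. CPM are not per transcript length, so levels are compared between sites and not between genes. The defining marker Siglec1 was close to absent, with site means of 0.148 to 1.33 CPM, whereas Marco, a scavenger receptor of sinus macrophages, had means of 771 to 6273 CPM. Siglec1 is the gene of CD169, at which every mouse carried the Cre knock-in (KI/KI). The part of that allele in the low Siglec1 level was not tested. Marker genes of other tissues were present in some sites and are given beside results from those sites. In bulk samples fewer cells of a type and less RNA per cell cannot be told apart.

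The filter on low counts left 6 of the 9 genes to be tested: Rdh10, Aldh1a1, Aldh1a2, Aldh1a3, Cyp26b1 and Stra6. All 6 differed somewhere among the 6 node sites (F test), with adjusted p from 8.25e-09 for Aldh1a1 to 0.00825 for Cyp26b1. Of all genes tested, 56.8% passed that test, so the share among these genes was set in a table where most genes varied by site. The sites with the highest means differed from gene to gene: mediastinal for Aldh1a1 and Rdh10, mediastinal and ileal for Aldh1a2, ileal for Cyp26b1, deep cervical for Aldh1a3, and spleen and inguinal for Stra6. The Stra6 order depended on scaling: in pooled plain CPM the super cervical node (6.49) lay above spleen (4.31) and the inguinal node (3.92). Over all 21 pairs of sites, the calls were 11 for Aldh1a1, 9 for Stra6, 8 for Aldh1a2, 8 for Rdh10, 6 for Aldh1a3 and 5 for Cyp26b1, beside 25.7% of all gene-by-pair tests.

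**Figure D1:**
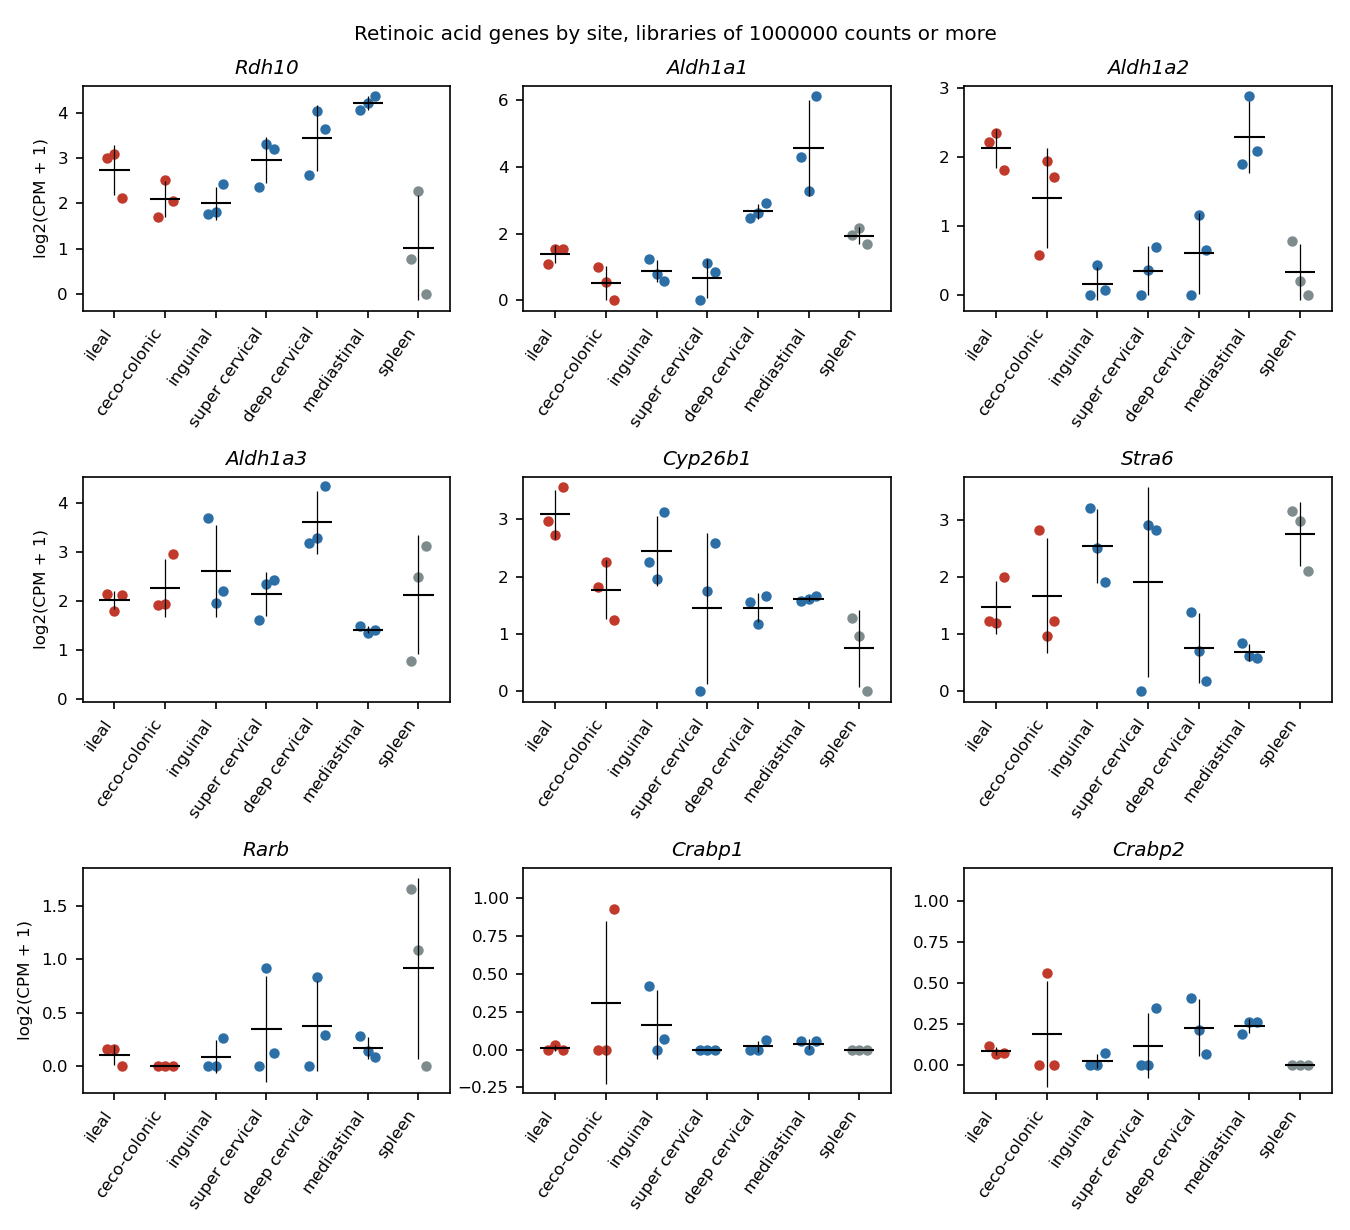
Levels of the 9 genes in the libraries of 6 node sites and spleen that held 1000000 counts or more; the vertical axis is log2(CPM + 1), each point is a library, the horizontal bar is the mean of 3 libraries and the vertical line its SD. Red marks the gut nodes, blue the non-digestive nodes and grey the spleen; Aldh1a2 is high in ileal and mediastinal nodes, Aldh1a1 and Rdh10 in the mediastinal node, and Rarb, Crabp1 and Crabp2 lie near 0.

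The gut nodes were compared with 4 nodes called non-digestive here because their titles name no digestive organ; what each node drains was not measured. The mean of the ileal and ceco-colonic sites was set against the mean of the inguinal, super cervical, deep cervical and mediastinal sites, each site counting equally on the log scale. Aldh1a2 was higher in the gut nodes and Aldh1a1 was lower. That is 2 of 6 tested genes, beside 3.77% of all genes called, 1.45% higher and 2.32% lower. The median log2 fold change of the 6 was 0.04 and that of all genes -0.03. The ileal and the ceco-colonic node were also set against the same 4 sites one at a time; all these comparisons share those reference libraries.

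Aldh1a2 (ENSMUSG00000013584), the retinal dehydrogenase of gut-imprinting dendritic cells, had 3.65, 4.06 and 2.50 CPM in the 3 ileal libraries and 0.505, 2.84 and 2.26 in the ceco-colonic ones. The mediastinal libraries had 2.71, 6.34 and 3.25 CPM. It was lowest in the inguinal libraries, at 0, 0.362 and 0.0512 CPM. Thus the ileal and mediastinal nodes were alike high, the ceco-colonic node had 1 low and 2 high libraries, and the ileal libraries lay above every inguinal, super cervical and deep cervical library. The super cervical libraries had 0, 0.295 and 0.627 CPM, and the deep cervical ones 0, 1.25 and 0.581. Spleen was low too, at 0.719, 0.160 and 0 CPM, and the isotype control held 0 counts, which allows up to 0.600 plain CPM. Site means fell in the order mediastinal (4.10 ± 1.96 CPM, SD, n = 3), ileal (3.40 ± 0.81), ceco-colonic (1.87 ± 1.22), deep cervical (0.609 ± 0.624), super cervical (0.307 ± 0.314), spleen (0.293 ± 0.378) and inguinal (0.138 ± 0.196).

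Aldh1a2 was higher in the gut nodes by a log2 fold change of 2.05 ± 0.50 (SE; edgeR adjusted p = 0.0180). The arithmetic means were 2.64 ± 1.25 CPM (SD, n = 6) against 1.29 ± 1.92 (n = 12), and the groups overlapped: the mediastinal libraries were as high as the ileal ones, and ceco-colonic replicate 1 lay below 2 deep cervical libraries and 1 super cervical library. The ileal node alone was higher by 2.53 ± 0.51 (adjusted p = 0.00282), and the ceco-colonic node alone did not pass (1.56 ± 0.69, adjusted p = 0.174). The ileal and ceco-colonic nodes did not differ beyond their spread (0.97 ± 0.71, adjusted p = 0.582), which does not show them to be alike. Leaving the inguinal site out of the reference lowered the gut value to 1.16 and ended the call (adjusted p = 0.0876; range over all alternatives 0.00192 to 0.0876), and leaving out the mediastinal site raised it to 2.98. The call was also lost without the deep cervical site (2.11, adjusted p = 0.0656), without ceco-colonic replicate 2 (1.81, 0.0846), ceco-colonic replicate 3 (1.94, 0.0645) or inguinal replicate 3 (1.80, 0.0681).

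Pair by pair, Aldh1a2 was higher in the ileal than in the deep cervical node (2.33 ± 0.70, edgeR adjusted p = 0.0169; 21.9% of all genes called) and the inguinal node (adjusted p = 0.00428; 2.76%). The inguinal libraries held 2 counts of Aldh1a2 in all, so that ratio is poorly known: the pooled plain CPM were 52.1 times apart, with an exact 95% counting interval from 14.3 to 432. The ileal node did not pass against the super cervical node (2.86 ± 0.82, adjusted p = 0.0524; 2.74%) or the mediastinal node (-0.26 ± 0.59, adjusted p = 0.775; 15.3%). Against the mediastinal node, Aldh1a2 was lower in the deep cervical node (-2.60 ± 0.70, adjusted p = 0.0112; 14.7%) and in the inguinal node (adjusted p = 0.000171; 46.9%). The mediastinal and inguinal pooled plain CPM were 62.0 times apart, with an exact counting interval from 17.1 to 512. Aldh1a2 was lower in the super cervical than in the mediastinal node too (-3.12 ± 0.81, edgeR adjusted p = 0.00509), where 35.8% of all genes were called. The mediastinal node, which is not a gut node, therefore stood with the ileal node at the top of the order. These were also the most deeply sequenced sites, and the part of depth in the order was not tested.

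**Figure D2:**
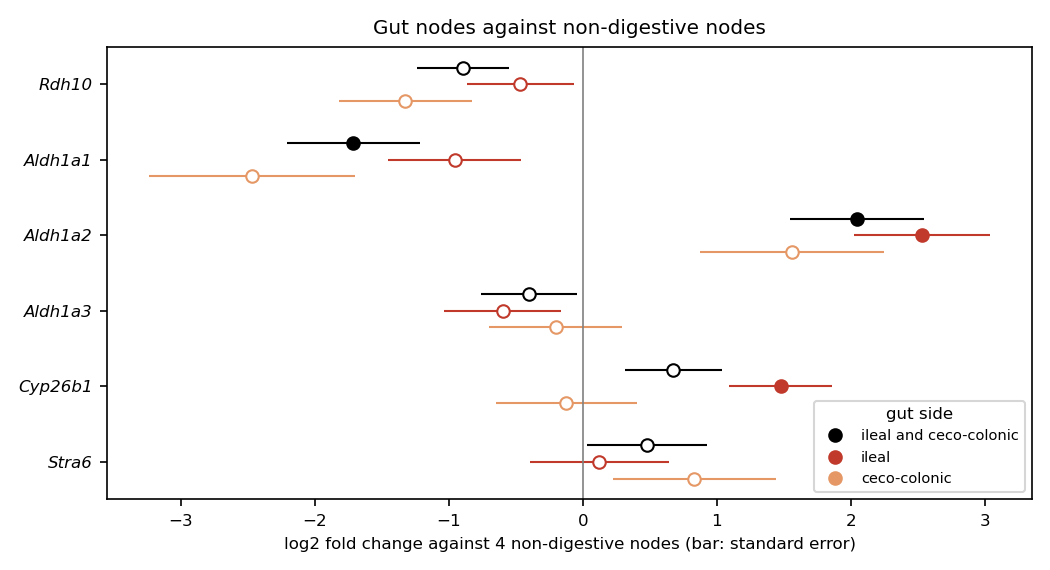
Log2 fold change of the 6 tested genes in gut nodes against the 4 non-digestive nodes, with the standard error as a bar; black is ileal and ceco-colonic together, red ileal and orange ceco-colonic, and filled points have an adjusted p under the threshold. Aldh1a2 lies at 2.05 together and 2.53 in the ileal node, Cyp26b1 at 1.48 in the ileal node, and Aldh1a1 at -1.71 together.

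Marker lists are given here beside the ileal values of Aldh1a2. The 10 genes of the sinus and resident macrophage list summed to 6126 to 7249.9 CPM in the ileal libraries and to 582 to 2719 in the 12 non-digestive ones, and 4 of its 9 tested genes were higher in the ileal node, none lower, beside 1.61% of all genes higher. Marco alone made up most of the ileal sum. In the mediastinal libraries, where Aldh1a2 was as high, the list summed to 2405 to 2719 CPM. It summed to 1036 to 3029 CPM in the ceco-colonic libraries and to 171 to 3485 in spleen, where Aldh1a2 was low. The deeper jejunal library had a sum of 6921 CPM and 0 counts of Aldh1a2, which allows up to 1.54 plain CPM. Of the lymphatic endothelium list 5 of 8 genes were higher in the ileal node, and the list summed to 217 to 348 CPM there and to 927 to 1122 in the mediastinal libraries, where Aldh1a2 was also high. The dendritic cell list summed to 229 to 313 CPM in the gut libraries and 151 to 426 in the non-digestive ones. In the gut nodes 2 of its 9 tested genes were higher, beside 1.45% of all genes: Clec9a (1.73 ± 0.34, edgeR adjusted p = 0.00279) and Batf3 (1.09 ± 0.24, adjusted p = 0.00717), which mark cross-presenting dendritic cells. The rest did not pass, among them Xcr1 (0.73, adjusted p = 0.255), Itgae (-0.08, 0.954) and Itgax (-0.43, 0.626). The median of the list was 0.18. No defining gene of that list was at 0 in the 6 node sites. The mesothelium list, cells that also express Aldh1a2, summed to 13.3 to 27.3 CPM in gut libraries and 12.8 to 86.8 in the others. The part of these cells in the Aldh1a2 result was not tested.

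Cyp26b1 (ENSMUSG00000063415), which breaks retinoic acid down, was highest in the ileal node, with 6.86, 5.62 and 10.8 CPM. The ceco-colonic libraries had 2.53, 3.79 and 1.36 CPM and the inguinal ones 3.74, 2.90 and 7.74. All ileal libraries lay above all ceco-colonic libraries but overlapped the inguinal ones. The super cervical libraries had 0, 2.36 and 5.02 CPM, the deep cervical ones 1.95, 1.25 and 2.15, and the mediastinal ones 1.98, 2.06 and 2.15. Spleen was lowest, at 1.44, 0.961 and 0 CPM, and the isotype control had 6 counts, or 1.2 plain CPM. In pooled plain CPM only spleen (0.605) among these sites lay below that control.

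In the ileal node Cyp26b1 was higher than in the 4 non-digestive nodes by 1.48 ± 0.39 (edgeR adjusted p = 0.0282), so 2 of 6 genes, Aldh1a2 and Cyp26b1, were higher there, beside 1.61% of all genes higher and 2.89% called in either direction. The ceco-colonic value was -0.12 ± 0.52 (adjusted p = 0.935), and the gut sites together gave 0.68 ± 0.36 (adjusted p = 0.291). The direct comparison of ileal with ceco-colonic did not pass for Cyp26b1 (1.60 ± 0.60, adjusted p = 0.223), nor for any of the 6 genes, beside 0.264% of all genes called. Pair by pair, Cyp26b1 was higher in the ileal than in the deep cervical (2.10 ± 0.58, adjusted p = 0.00918) and mediastinal nodes (1.90 ± 0.53, adjusted p = 0.0195). It did not pass against the inguinal (0.61 ± 0.54, adjusted p = 0.536) or super cervical node (1.30 ± 0.57, adjusted p = 0.241). The ileal call rested on few libraries: without ileal replicate 3 the value was 1.18 (adjusted p = 0.401, the highest of a range from 0.00881), and without ileal replicate 1 or 2 the adjusted p was 0.118 and 0.0710.

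Aldh1a1 (ENSMUSG00000053279), a retinal dehydrogenase of many epithelia and stromal cells, was high in the mediastinal node and spread widely there, at 18.7, 8.69 and 68.3 CPM. The deep cervical libraries had 4.56, 5.14 and 6.57 CPM. Ileal libraries had 1.14, 1.90 and 1.94 CPM and ceco-colonic ones 1.01, 0.473 and 0. Every mediastinal and deep cervical library thus lay above every gut library. Inguinal (1.36, 0.724 and 0.512 CPM) and super cervical libraries (0, 1.18 and 0.807) overlapped the gut ones, spleen had 2.88, 3.52 and 2.20 CPM, and the isotype control had 8 counts, or 1.60 plain CPM. That control lay above the pooled plain level of the super cervical (0.937), inguinal (0.690) and ceco-colonic nodes (0.534). It lay below the ileal node and spleen (each 2.12), the deep cervical (8.25) and the mediastinal node (51.9).

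Against the 4 non-digestive nodes Aldh1a1 was lower in the gut nodes, with a log2 fold change of -1.71 ± 0.50 (edgeR adjusted p = 0.0479), and with means of 1.08 ± 0.77 CPM (SD, n = 6) against 9.71 ± 19.2 (n = 12). Without the mediastinal site in the reference the value was -0.61 and the call was lost (adjusted p = 0.718, the highest of a range from 0.00204). It was also lost with limma voom (adjusted p = 0.0891) and in 14 of 18 fits that left out 1 library. In single pairs Aldh1a1 was lower in the ileal than in the mediastinal node (-4.26 ± 0.61, adjusted p = 6.32e-05) and the deep cervical node (-1.73 ± 0.57, adjusted p = 0.0302). The ceco-colonic node was lower than the mediastinal (-5.77 ± 0.79, adjusted p = 5.15e-05; 35.4% of all genes called in that pair) and the deep cervical node (-3.24 ± 0.81, adjusted p = 0.00413; 30.0%). Airway and lung markers moved with it: the 7 genes of that list summed to 2.65 to 11.3 CPM in gut libraries, 369 to 2338 in mediastinal ones and 97.0 to 182 in deep cervical ones. In the gut nodes 3 of the 7 were lower, beside 2.32% of all genes. The list was led by the club cell gene Scgb1a1 (275 to 1781 CPM in mediastinal libraries), while the alveolar gene Sftpc reached 0.569 CPM there and was at 0 in every gut library. The part of airway cells in the Aldh1a1 result was not tested.

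**Figure D3:**
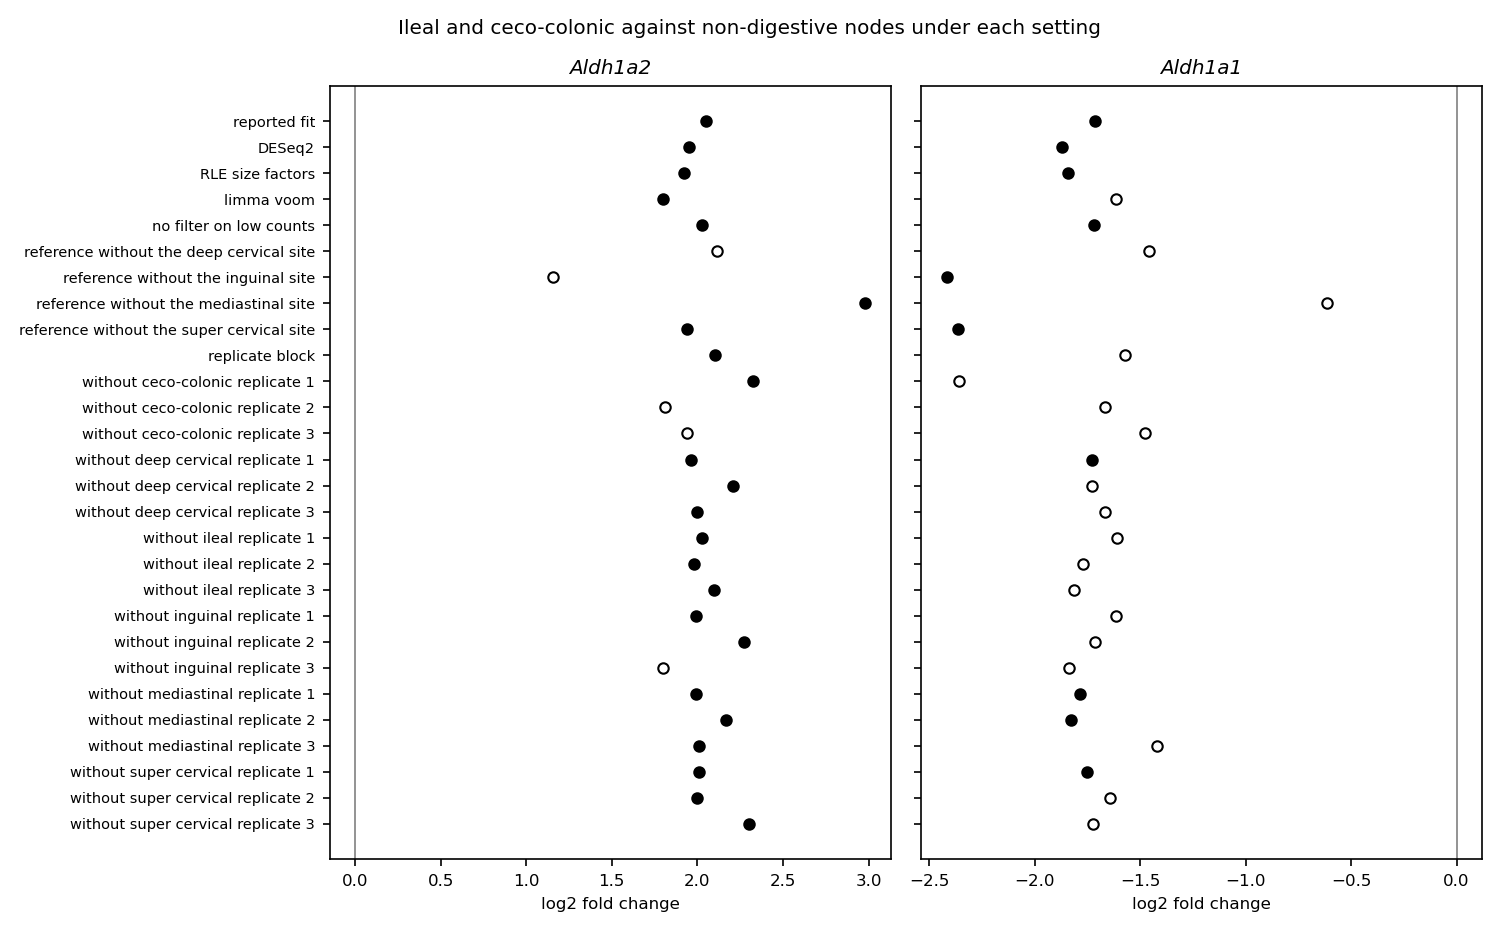
Log2 fold change of Aldh1a2 and Aldh1a1 in ileal and ceco-colonic nodes against non-digestive nodes in the reported fit and in 27 alternatives, 1 a row; filled points have an adjusted p under the threshold. Aldh1a2 stays positive from 1.16 to 2.98 and is called in 22 of 27 alternatives, and Aldh1a1 stays negative from -2.42 to -0.61 and is called in 9.

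Rdh10 (ENSMUSG00000025921), the dehydrogenase that opens the pathway, followed the order mediastinal, deep cervical, super cervical, ileal, ceco-colonic, inguinal and spleen. The mediastinal libraries had 15.5, 17.6 and 19.5 CPM and the deep cervical ones 5.21, 15.4 and 11.4. The ileal libraries had 7.06, 7.49 and 3.31 CPM and the ceco-colonic ones 2.27, 4.73 and 3.17. No mediastinal library overlapped a gut library. In the remaining sites the values were 4.16, 8.85 and 8.16 CPM (super cervical), 2.38, 2.53 and 4.35 (inguinal), and 0.719, 3.84 and 0 (spleen). The isotype control held 0 counts of Rdh10, which allows up to 0.600 plain CPM.

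Rdh10 did not pass in the gut comparison (-0.90 ± 0.34, edgeR adjusted p = 0.137), although it did with DESeq2 (-1.01, adjusted p = 0.0441) and without the inguinal site in the reference (-1.34, adjusted p = 0.0106). It was lower than in the mediastinal node in the ileal (-1.55 ± 0.49, adjusted p = 0.0333), ceco-colonic (-2.41 ± 0.56, adjusted p = 0.00218) and inguinal nodes (-2.42 ± 0.54, adjusted p = 0.000905). The ceco-colonic node was lower than the deep cervical node as well (-1.72 ± 0.57, adjusted p = 0.0232). The airway list had its highest sums in the same 2 nodes as Rdh10, mediastinal and deep cervical, and the mediastinal libraries were also highest in lymphatic endothelium markers (927 to 1122 CPM) and fibroblastic stroma markers (2489.9 to 2579 CPM, against 1284 to 2273 in gut libraries). The part of these cells in the Rdh10 result was not tested. Against the same 4 sites, the ceco-colonic node alone gave -1.32 ± 0.49 for Rdh10 (adjusted p = 0.111) and -2.47 ± 0.77 for Aldh1a1 (adjusted p = 0.0629). None of the 6 genes passed in the ceco-colonic comparison, beside 4.11% of all genes. Before adjustment Aldh1a1, Rdh10 and Aldh1a2 lay under 0.05, beside 4455 of all 19702 genes. DESeq2 called Aldh1a1 (-2.68, adjusted p = 0.0224) and Rdh10 (-1.47, adjusted p = 0.0306), beside 1984 of the 19702 genes.

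Aldh1a3 (ENSMUSG00000015134), the third retinal dehydrogenase, was highest in the deep cervical node, at 8.14, 8.72 and 19.4 CPM. The ileal libraries had 3.41, 2.48 and 3.36 CPM, the ceco-colonic ones 2.78, 2.84 and 6.79, and the mediastinal ones 1.83, 1.54 and 1.67. Every deep cervical library lay above every gut library, and the mediastinal libraries below them. The inguinal libraries ran from 2.90 to 11.9 CPM, the super cervical ones from 2.08 to 4.39 and spleen from 0.719 to 7.71. The gut comparison did not pass (-0.40 ± 0.36, edgeR adjusted p = 0.554), and without the deep cervical site the value was 0.07. In pairs Aldh1a3 was lower than in the deep cervical node in the ileal (-2.0 ± 0.54, adjusted p = 0.00834) and ceco-colonic nodes (-1.60 ± 0.59, adjusted p = 0.0388), and higher in the deep cervical than in the mediastinal node (2.87 ± 0.55, adjusted p = 0.000576). Thyroid and parathyroid markers were highest in the same node. Their 6 genes summed to 1623 to 14832.5 CPM in the deep cervical libraries and to at most 25.4 in gut libraries, and Pth alone had a deep cervical mean of 1983 CPM. In the inguinal libraries, where Aldh1a3 reached 11.9 CPM, they summed to at most 10.7. The muscle (138 to 2594 CPM), nerve and glia (155 to 470), adipocyte (4348 to 12303) and mesothelium lists (66.1 to 86.8) also had their highest mean sums in the deep cervical node. The part of all these cells in the Aldh1a3 result was not tested. The isotype control held 25 counts of Aldh1a3, or 5.0 plain CPM, above the pooled plain level of the inguinal (4.87), super cervical (4.69), ileal (3.68), ceco-colonic (3.42) and mediastinal nodes (2.37) and of spleen (2.80), and below the deep cervical level (21.9).

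Stra6 (ENSMUSG00000032327), the retinol receptor, had its highest means in spleen (6.04 ± 2.42 CPM, SD, n = 3) and the inguinal node (5.21 ± 2.73). The ileal libraries had 1.34, 1.28 and 3.01 CPM, and the ceco-colonic ones 6.06, 0.946 and 1.36. The super cervical libraries had 0, 6.49 and 6.09 CPM, the deep cervical ones 1.63, 0.623 and 0.134, and the mediastinal ones 0.801, 0.538 and 0.497. The gut libraries were intermediate and overlapped both groups. The gut comparison did not pass (0.48 ± 0.45, edgeR adjusted p = 0.578), and its sign turned without ceco-colonic replicate 1 (-0.22). Stra6 was higher in the ceco-colonic than in the deep cervical (2.44 ± 0.89, adjusted p = 0.0395) and mediastinal nodes (2.30 ± 0.75, adjusted p = 0.0185). The isotype control gave 47 counts of Stra6, or 9.39 plain CPM, above the pooled plain level of every site in which it was read, of which the super cervical node was highest at 6.49. The pooled Stra6 levels were thus not above this control, a single library.

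No gene of the 6 passed between the ceco-colonic and inguinal nodes, where 0.107% of all genes were called, between the ceco-colonic and super cervical nodes, where 0.350% were, or between the ileal and super cervical nodes.

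**Figure D4:**
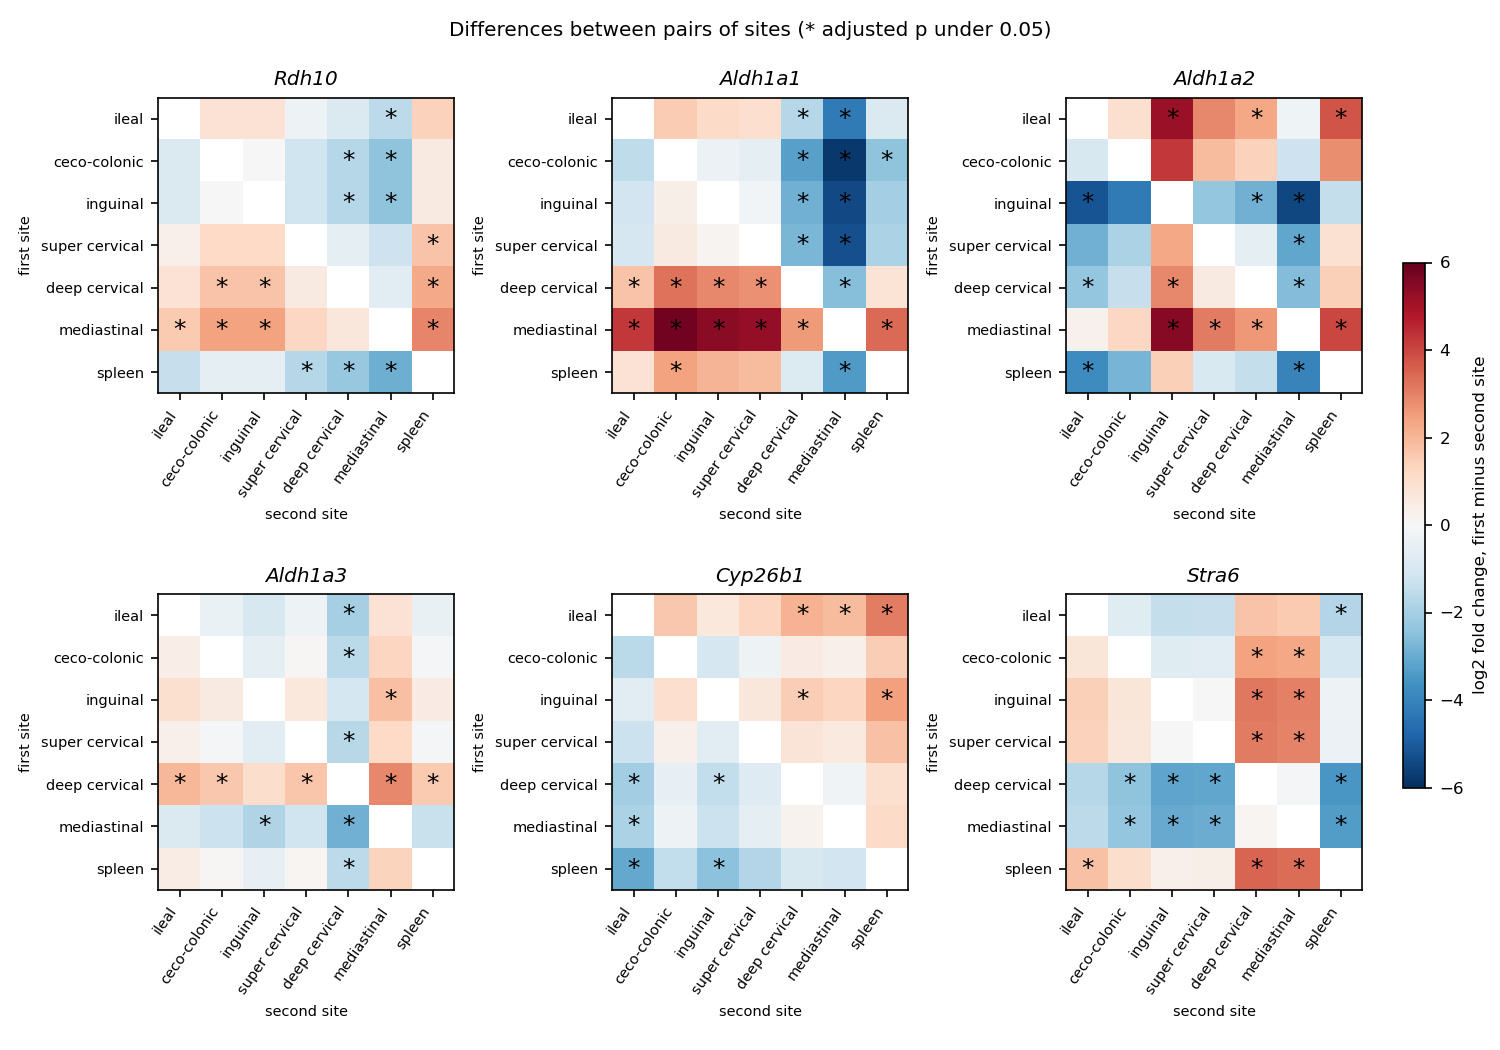
Log2 fold change between every pair of 7 sites for the 6 tested genes, first site (row) minus second site (column), on a colour scale from blue (lower) to red (higher); a star marks an adjusted p under the threshold. Aldh1a1 carries stars in every cell of the mediastinal row, Aldh1a2 in ileal and mediastinal rows, and Stra6 in the deep cervical and mediastinal rows as the lower sites.

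Set against spleen, the 6 node sites together were higher in Rdh10 (1.56 ± 0.52, edgeR adjusted p = 0.0124) and Cyp26b1 (1.82 ± 0.67, adjusted p = 0.0228) and lower in Stra6 (-1.72 ± 0.54, adjusted p = 0.00873). These are 3 of 6 genes, beside 57.1% of all genes called in that comparison. Means were 7.95 ± 5.61 CPM (SD, n = 18) against 1.52 ± 2.04 (n = 3) for Rdh10, 3.57 ± 2.70 against 0.800 ± 0.733 for Cyp26b1, and 2.58 ± 2.57 against 6.04 ± 2.42 for Stra6. Node and spleen libraries overlapped for all 3. In pooled plain CPM, Stra6 in spleen (4.31) lay above the inguinal node (3.92) but below the super cervical node (6.49) and the isotype control (9.39). The spleen libraries held 1165387 to 9619717 counts, with 5.55% to 42.7% on the ribosomal features, and the part of that spread was not tested. Aldh1a2 did not pass (1.90 ± 1.08, adjusted p = 0.132) with 2 counts in all of spleen, nor did Aldh1a1 (-0.50 ± 0.56, adjusted p = 0.464) or Aldh1a3 (0.01 ± 0.52). Some single pairs with spleen did pass. Aldh1a2 was higher in the ileal (edgeR adjusted p = 0.00446) and mediastinal nodes (0.00135). Aldh1a1 was higher in the mediastinal (3.38 ± 0.66, 7.16e-05) and lower in the ceco-colonic node (-2.39 ± 0.90, 0.0426). Aldh1a3 was higher in the deep cervical node (1.55 ± 0.61, 0.0281). The other pairs of these genes with spleen did not pass. In the pairs named, 31.5% to 66.9% of all genes were called. The Rdh10 call was lost without spleen replicate 1 (1.05, adjusted p = 0.132) or 3 (1.05, 0.0994) and the Stra6 call without spleen replicate 2 (-1.64, 0.0804). The Cyp26b1 call was lost without any 1 of the 3 spleen libraries (1.36 to 1.90, adjusted p 0.0575 to 0.112) or without ileal replicate 3 (1.56, 0.0563).

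Rarb, Crabp1 and Crabp2 were too low to test. Rarb (ENSMUSG00000017491), itself switched on by retinoic acid through the element printed in its promoter, had 65 counts over the 22 deeper libraries and 1 or more in 12 of them. Its ileal libraries held 8 counts in all, and the ceco-colonic ones 0, which allows up to 0.320 plain CPM; the mediastinal libraries held 29 at the greatest depth. Spleen had the highest mean, 1.09 ± 1.08 CPM (SD, n = 3), from 10 counts. Crabp2 (ENSMUSG00000004885), which hands retinoic acid to its receptors, had 54 counts, 41 of them in the mediastinal libraries, where it was found in all 3 at 0.140, 0.197 and 0.197 CPM. Crabp1 (ENSMUSG00000032291), the other cellular carrier, had 13 counts in 7 libraries. A difference between gut and other nodes in these 3 genes was not detectable at this depth.

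The duodenal and jejunal nodes could be read for few of the 9 genes. Aldh1a2 had 0 counts in the 3 duodenal libraries, which allows up to 3.14 plain CPM, and 0 in the 3 jejunal ones, which allows up to 1.11. The pooled ileal level was 4.49 and the ceco-colonic level 1.39. These limits divide by totals that include the ribosomal features. Those held 74.8% to 85.1% of duodenal and 15.5% to 60.3% of jejunal counts, against 1.97% to 12.3% of ileal ones. Over the remaining counts the limits would be higher, so they do not place the duodenal node below the ileal one. The jejunal libraries held 9 counts of Stra6, 8 of Aldh1a3, 5 of Cyp26b1, 3 of Aldh1a1 and 2 of Rdh10. The duodenal ones held 4 of Cyp26b1 and 2 each of Aldh1a1, Aldh1a3 and Rarb. In the jejunal library of over 1000000 counts, Stra6 had 4.61 and Aldh1a3 3.59 plain CPM, both under the isotype control from the same kind of node. Celiac libraries held 3 counts of Aldh1a2, and liver and iliac ones 0. Over the 14 shallow libraries Aldh1a3 was seen in 6, Aldh1a1 in 4, Cyp26b1 in 3, Aldh1a2, Rdh10 and Stra6 in 2 each, Rarb in 1 and the Crabp genes in none. A model of all 36 libraries, with 4 gut sites against 5 others, called none of the 6 genes with edgeR, beside 15.6% of 16294 genes. Before adjustment Rdh10 was the only 1 of the 6 under 0.05 (edgeR adjusted p = 0.0671), beside 5689 of the 16294 genes. Its size was poorly known, from -4.65 to -0.97 over the alternatives, since the duodenal libraries held 0 counts of Rdh10, and it was called without jejunal replicate 2 (-4.65, adjusted p = 0.0412). With the same libraries Rdh10 was called by DESeq2 (-1.68, adjusted p = 0.0137) and limma voom (-1.03, adjusted p = 0.0261). In that model limma voom also called Aldh1a2, at 1.23 (adjusted p = 0.0343), while the edgeR value could not be estimated with 0 counts in 3 of the sites compared.

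The genes around these 9 in the pathway were taken as 6 lists holding 65 genes, 54 of them tested. In the gut comparison 4 of the 54 passed, 2 in each direction, with a median of 0.08, beside 3.77% of all genes called and a median of -0.03. Bco2, which cleaves carotenoids, was higher (0.88 ± 0.24, edgeR adjusted p = 0.0318), at 23.3 ± 1.04 CPM (SD, n = 3) in the ileal and 17.2 ± 5.53 in the ceco-colonic node against 8.95 to 14.9 in the other 4. Gata6, a transcription factor induced by retinoic acid in peritoneal macrophages, was higher too (2.13 ± 0.49, adjusted p = 0.0119), at 2.90 ± 0.23 CPM in the ileal and 2.43 ± 1.72 in the ceco-colonic node against 0.0598 to 1.16. Rbp7, a cellular retinol-binding protein of fat and endothelium, was lower (-1.86 ± 0.38, adjusted p = 0.00378) and was highest in the deep cervical node, at 37.9 ± 20.7 CPM. The adipocyte list summed to 4348 to 12303 CPM in the deep cervical libraries and 1978 to 4311 in gut ones, and its part in the Rbp7 result was not tested. Adh7, a retinol-oxidising enzyme of epithelia, was lower (adjusted p = 0.0308); it had 16.1 ± 12.6 CPM in the mediastinal node and 0 counts in the ileal one, and the part of the airway cells marked there was not tested.

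By list, and beside 1.45% of all genes higher and 2.32% lower, retinol uptake and transport gave 1 higher and 1 lower of 9 tested genes, retinol and retinal oxidation and reduction 0 higher and 1 lower of 13, and known retinoic acid targets 1 higher of 16. Retinol storage (7 tested) and the nuclear receptors and binding proteins (11 tested) gave 0, and Cyp26a1 and Cyp26c1, the relatives of Cyp26b1, were too low to test. In the ileal node alone 3 of 16 target genes were higher, beside 1.61% of all genes: Gata6 (2.23 ± 0.53, adjusted p = 0.0146), Tgm2 (1.45 ± 0.36, adjusted p = 0.0209), a transglutaminase that responds to retinoic acid, and Gpr15 (2.66 ± 0.58, adjusted p = 0.00627), a colon-homing receptor. Tgm2 stood at 65.4 ± 10.5 CPM (SD, n = 3) in the ileal and 94.3 ± 19.99 in the mediastinal node against 10.6 ± 0.957 in the ceco-colonic one. It was the only one of the 54 to pass between the ileal and ceco-colonic nodes (2.63 ± 0.55, adjusted p = 0.0296). Ccr9, the gut-homing receptor that retinoic acid induces in lymphocytes, had 3.58 ± 0.605 CPM in the ileal, 1.91 ± 0.512 in the ceco-colonic and 4.09 ± 0.632 in the mediastinal node, and did not pass. Against spleen 34 of the 54 passed, 24 higher in nodes, with a median of 1.15, beside 57.1% of all genes called and a median of 0.27. A share of 34 in 54 is near that of all genes.

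The 6 tested genes did not follow one another closely. Over the 21 libraries of the 6 nodes and spleen, Pearson's r of log2 CPM ran from -0.45 between Rdh10 and Stra6 to 0.51 between Aldh1a2 and Rdh10, and between Aldh1a2 and Cyp26b1 it was 0.46 (Spearman's rho 0.33). These points share sites and differ in depth, so the values only describe the libraries. Among 13288 genes with a mean of 1 CPM or more, the ones most like Aldh1a2 were Slc7a7 (r = 0.90), Serpinb9 (0.85) and Asb2 (0.85), and most like Cyp26b1 were Rb1 (0.90), Mettl2 (0.87) and Ptafr (0.86). For Aldh1a1 they were Pdzd8 (0.85), Fxr1 (0.83) and Zmiz1 (0.83), and for Rdh10 Psmd6, Dnaja2 and Eif2d (each 0.95). Those of Aldh1a3 were Pax1 (0.84), Syn2 (0.82) and Ccdc141 (0.80), and those of Stra6 were Tmem30c (0.93), Vmn2r67 (0.91) and Rpl27rt (0.89).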

How the data were processed

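RNA from tagged ribosomes of 36 node and spleen libraries and 1 isotype control was measured. The authors deposited estimated counts per gene, unscaled; the tools named, per the submitters' processing notes, are edgeR, limma and kallisto, without versions. The notes list both GRCm39 and mm10, so no gene coordinates are given. Of the deposited values 32.8% were not whole; all were rounded. Paralogs and overlapping genes may share reads.

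Tests used edgeR 4.0.16 in R 4.3.3 on 22 libraries with 1000000 counts or more: filterByExpr (minimum count 10, total 15), TMM, a robust quasi-likelihood fit with 1 mean per site, and Benjamini-Hochberg adjustment over all genes at 0.05. Standard errors come from the fold change and F statistic. limma 3.58.1 and DESeq2 1.42.0 were alternatives. The test code was also run on simulated counts, with large changes set in well-counted genes and no other differences between sites. That run does not bear on genes with few counts or on sites that differ widely. The rule names the 9 genes, pathway genes that passed in the gut comparison (other pathway genes named were chosen after their values were seen) and the 3 most correlated genes each. Genes and lists were chosen with earlier results of these data known. The isotype control entered no model. All 36 replicate pairs differed beyond sampling noise (chi-square over its degrees of freedom at least 10.8).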

Additional observations from a re-analysis of the deposited data

Results flagged for a closer look

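Aldh1a3 in celiac replicate 2 stood at 33.1 plain CPM, from 9 counts in a library of 272210, while the isotype control had 5.0. The celiac node entered no comparison. The other celiac libraries held 1 count each, at 3.38 and 1.09 plain CPM, and 3 counts in celiac replicate 2 are worth 11.02 CPM. The excess over the isotype control rests on this library, and no test was possible on it.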

How the results depend on the processing

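Over 858 alternatives for single genes of the 9, 776 kept direction and side of the threshold, 39 lost a call, 10 gained one and 33 changed sign; 0 of the 33 had passed in the reported fit. Aldh1a2 in the ileal node was called in all 20 alternatives (2.29 to 2.79), of which 15 left out 1 library and the rest changed the method. Unlike the gut comparison, the ileal and ceco-colonic comparisons were not repeated without a reference site. Aldh1a1 in the gut comparison lost its call in 18 of 27: without the deep cervical site (-1.46, adjusted p = 0.276), without the mediastinal site, with limma voom (-1.62, 0.0891), with the replicate block and in 14 of 18 leave-outs (adjusted p 0.0533 to 0.129), all but those of deep cervical replicate 1, mediastinal replicates 1 and 2 and super cervical replicate 1. Cyp26b1 in the ileal node was lost in 8 of 20: with RLE size factors (1.38, 0.0536), without any ileal replicate, without deep cervical replicate 2 (1.43, 0.0518) and without any mediastinal replicate (0.0503 to 0.0516). In the ceco-colonic node Aldh1a1 gained a call with DESeq2, without a filter (-2.51, 0.0200), without deep cervical replicate 1 (-2.48, 0.0392) and without mediastinal replicate 2 (-2.58, 0.0421). Without ileal replicate 3 the F test of Cyp26b1 gave 0.0634. The causes were not tested.

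Counts of called genes in the gut comparison were 742 reported, 1636 with DESeq2, 1270 without a filter, 3933, 2333 and 171 without the inguinal, super cervical and deep cervical site, and 303 to 1827 leaving out 1 library. The ileal counts were 570 reported, 877 with DESeq2, 913 without a filter, 1019 with limma voom and 235 to 675 leaving out 1 library. The ceco-colonic counts were 809 reported, 1984 with DESeq2, 1641 without a filter and 63 to 1994 leaving out 1 library. Ileal against ceco-colonic gave 52 reported, 604 with DESeq2, 101 with RLE, 508 without a filter, 96 with limma voom, and 3 to 66 leaving out 1 library. The model of 36 libraries gave 2544 reported, 5677 with DESeq2, 273 without the duodenal site and 1398 to 3992 leaving out 1 gut library.

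RLE moved the median of all genes by -0.13 in the gut, -0.16 in the ceco-colonic and -0.18 in the spleen comparison. Higher and lower calls went from 285 and 457 to 249 and 653 in the gut comparison and from 554 and 255 to 387 and 393 in the ceco-colonic one.

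Signs turned, with no call, for Aldh1a3 in the gut comparison without the deep cervical site (0.0664), Stra6 there without the deep cervical (-0.0555) or mediastinal site (-0.0096), and Aldh1a3 against spleen with DESeq2 (-0.28) and RLE (-0.23). In the model of 36 libraries Aldh1a2 turned with DESeq2 (0.75), limma voom (1.23, called) and without the duodenal site (0.57), and Stra6 with limma voom (0.53) and without the duodenal site (0.67). Leaving out 1 library gave ranges across 0 for Stra6 in the gut (-0.22 to 0.71), ileal (-0.38 to 0.35), ceco-colonic (-0.56 to 1.202) and ileal against ceco-colonic comparison (-1.11 to 0.68). The same held for Aldh1a3 in the ceco-colonic (-0.73 to 0.0509), ileal against ceco-colonic (-0.65 to 0.13) and spleen comparison (-0.64 to 0.17), and for Cyp26b1 in the ceco-colonic (-0.45 to 0.15) and 36-library comparison (-1.61 to 0.76).

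Over all sites, same-number libraries correlated at -0.308 to 0.429 (median 0.0214), over 0.1 in 16 of 63 cases. Those cases were not spread evenly. Of the 16, 12 were replicates 1 and 3 of the 4 non-digestive nodes, in which every such pair was over 0.1. These nodes are the reference of the gut comparisons, so their libraries may not be independent. The source of this shared spread was not tested. With the replicate block the gut count was 847, the ileal against ceco-colonic count 102, Aldh1a1 in the gut comparison -1.57 (adjusted p = 0.0699), Cyp26b1 in the ceco-colonic node 0.0069 and Aldh1a3 against spleen -0.0648. Pairs of sites were not recomputed. Depth limits Rarb, Crabp1, Crabp2 and the 14 shallow libraries.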
